A study of Mus musculus with 26 samples.

Results

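The genes described here are 39 ribosome biogenesis factors, proteins of the nucleolus that transcribe, modify, fold and cut ribosomal RNA (rRNA). They were taken from a fixed list of names, and all 39 were found in each of the 3 gene tables, which hold 53978 genes for the dTAG13 experiment, 50969 for the overexpression experiment and 21275 for testis. All 39 had a mean value of at least 1 in every table and were tested. Tex10 belongs to a complex that acts on the large ribosomal subunit, and the question was whether these genes rose, fell or stayed where they were when Tex10 was to be degraded, raised or deleted.

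RNA polymerase I transcribes a long precursor rRNA in the nucleolus. Small nucleolar ribonucleoproteins (snoRNPs) then modify it: box C/D particles methylate it and box H/ACA particles turn uridine into pseudouridine. A large assembly, the small subunit processome, forms on one end of the precursor, and other factors build the large subunit on the rest of it. Growth-promoting transcription factors of the Myc family are known to drive many of these genes, and cells that stall in ribosome assembly are known to stabilise p53. Tex10, Pelp1, Wdr18, Las1l, Senp3, Nol9 and Mdn1 make up or work with the rixosome, which cuts a spacer out of the large subunit precursor and helps release it from the nucleolus.

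RNA-seq was available from 26 mouse samples. The dTAG13 experiment had 10 libraries, 2 in each group, from 129Sv/J cells: EpiLCs (epiblast-like cells) without treatment, and PGCLCs (cells like primordial germ cells, a culture model of the embryonic precursors of gametes) at day 2 and day 4 with the solvent DMSO or with dTAG13 at 500 nM. dTAG13 is a small molecule that brings tagged proteins to the cell's ubiquitin machinery for degradation. The labels do not say how the tag was introduced or whether the cells were 1 clone, and RNA does not show how much protein was lost. Since the EpiLCs were untreated, they differ from the day 2 and day 4 controls by the solvent as well as the stage. For overexpression there were 12 libraries, also of 129Sv/J cells: an empty-vector line and 2 clones overexpressing Tex10, with 1 library of each at the EpiLC stage and on days 2, 4 and 6. The testis experiment had 2 wildtype and 2 Tex10 conditional knockout (cKO) libraries on a C57BL/6N background. The labels give neither the Cre driver, the age of the mice nor whether animals were pooled. Nothing in the labels says that replicates came from separate cultures, so p-values measure only the spread between these libraries.

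Depth ranged from 5055362 to 8564563 reads per library, and 3 reads corresponded to a value between 0.299 and 0.56, a floor that covers counting error only. Libraries with dTAG13 were shallower, at 5055362 to 5854980 reads, than those with DMSO, at 6119730 to 8293878. The part of depth in the differences was not tested. Values are CPM over library sizes that were scaled by TMM, a trimmed mean, and are called TMM-scaled CPM. They were not divided by transcript length, so levels were compared between libraries and not between genes. Differences are on the log2(value + 1) scale, which makes changes of weakly expressed genes look smaller. A gene was called when its limma p-value, with Benjamini-Hochberg adjustment across every gene tested, was under 0.05. Same-group libraries correlated across genes between 0.98 and 0.991 on the log2 scale. Pluripotency and PGC markers were present in the cultured cells, where all 8 spermatid markers had a mean under 1, while spermatid markers summed to between 20000 and 22470 in wildtype testis.

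Some of the 39 genes have processed copies elsewhere in the genome, spliced sequences reinserted as DNA. The sequence across an exon junction of the RNA can then be found unbroken in the copy, while in the gene an intron parts it. Such copies were found for 14 of the 39 genes in the dTAG13 and overexpression tables. They held more of the summed value than the gene itself for Fbl, Npm1, Pes1 and Wdr12. In the dTAG13 table Fbl averaged 21.82 TMM-scaled CPM and its copies 210.8, Npm1 379.9 and 479.1, Pes1 45.67 and 82.9, and Wdr12 43.21 and 52.59. In the overexpression table the copies took a larger share, 98.4% of the summed value for Fbl, 83.9% for Npm1, 86.7% for Pes1 and 80.8% for Wdr12. Copies held 20.6% of the summed value of Nop56 in the dTAG13 table and 44.7% of that of Nhp2 in testis. How much RNA of these genes was counted at the copies was not tested, so their levels are uncertain, and values with the copies added are given wherever they change a call.

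The sequences below show how alike Fbl, Wdr12 and Pes1 are to a copy across exon junctions. Each is a 60-base stretch of the spliced coding sequence across a junction between exons, from GENCODE M21 transcripts on GRCm38, with the 5 bases on either side of the junction in capitals. For Fbl (chr7:28169710-28179269, plus strand) the stretch spans exons 5 and 6, and that of its copy Gm5812 (chr17:6121208-6122164) has 0 mismatches. The Wdr12 stretch spans exons 7 and 8 and is likewise shared without a mismatch with Gm4879 (chr7:13178903-13180174). Pes1 and its copy Gm5910 (chr8:83477471-83479216) differ at 2 of 60 bases across exons 9 and 10.
Fbl and Gm5812: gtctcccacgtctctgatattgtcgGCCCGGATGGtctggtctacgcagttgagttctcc
Wdr12 and Gm4879: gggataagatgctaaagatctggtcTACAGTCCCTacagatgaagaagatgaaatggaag
Pes1: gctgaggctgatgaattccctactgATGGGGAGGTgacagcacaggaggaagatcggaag
Gm5910: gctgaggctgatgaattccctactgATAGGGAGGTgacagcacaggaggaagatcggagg
Over the coding junctions of each gene, stretches without a mismatch to the copy numbered 5 of 6 for Fbl, 4 of 12 for Wdr12, 6 of 13 for Pes1 and 2 of 10 for Npm1 with its copy Gm14681. With up to 3 mismatches allowed, 6 of 6, 12 of 12 and 12 of 13 junctions matched for Fbl, Wdr12 and Pes1, but 4 of 10 for Npm1, whose copy Gm14681 is shorter, at 411 bases against 1633 in the transcript. Junctions of the other Npm1 copies were not compared.

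**Figure D1:**
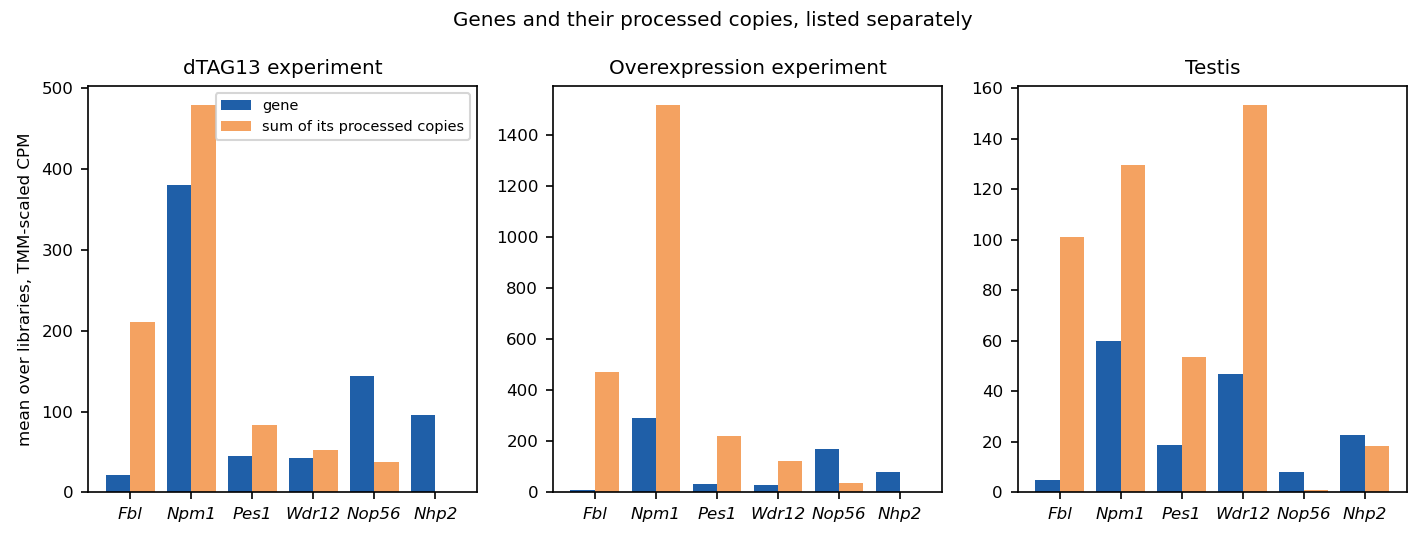
Bars give the mean TMM-scaled CPM (linear axis from 0) of 6 genes and the summed mean of their processed copies in the dTAG13, overexpression and testis tables. The copies of Fbl stand above the gene in all 3 tables, at 210.8 against 21.82 in the dTAG13 table and at 101 against 4.835 in testis.

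Tex10 itself comes before the 39 genes. In the day 2 libraries its RNA stood at 106 and 112.9 TMM-scaled CPM with DMSO and at 104 and 94.04 with dTAG13, a difference of -0.14 that was not called (SE 0.108, adjusted p = 0.322 by limma). On day 4 it stood at 109.5 and 104.8 with DMSO and 76.85 and 72.78 with dTAG13, and it was called lower by 0.51 on the log2 scale (SE 0.108, limma adjusted p = 0.000576). A degron acts on the protein, so these RNA values do not check the degradation. In the overexpression clones Tex10 exceeded the empty vector at every stage, with 393.7 and 384.7 against 213.5 in EpiLCs and 653.6 and 650.8 against 144.6 on day 6, and the fitted difference was 1.47 (SE 0.106, limma adjusted p = 2.14e-11). In testis Tex10 was at 79.1 and 44.11 in wildtype and at 29.81 and 27.32 in cKO, a difference of -1.025 (SE 0.214, limma adjusted p = 0.00318). The wildtype libraries thus differed from each other by more than the lower of them differed from the cKO, and neither cKO library was near 0.

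Some partners of Tex10 in the rixosome fell with dTAG13. On day 2, 3 of the 7 genes were called lower, where 19.9% of all genes were: Pelp1, a scaffold of the complex, by 0.55 (SE 0.107, limma adjusted p = 0.000412), the SUMO protease Senp3 by 0.54 (SE 0.103, 0.000376) and the spacer nuclease Las1l by 0.53 (SE 0.115, 0.00117). On day 4 these 3, Tex10 and Wdr18 were called lower, 5 of 7, where 26.0% of all genes were, and Mdn1 and Nol9 were not called on either day. Processed copies held 32.9% of the summed value of Senp3. Overexpression called none of the 6 partners. In cKO testis Las1l rose by 0.94 on the log2 scale, at 26.75 and 16.26 against 13.18 and 8.162 (SE 0.27, limma adjusted p = 0.0184). Las1l lies on the X chromosome, whose genes had a median 0.568 above that of autosomal genes in this comparison, and its 20 nearest tested genes had a median of 0.569. The part of the chromosome was not tested. In the same libraries Pelp1 was lower, at -0.40 (SE 0.122, limma adjusted p = 0.026).

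Ribosome biogenesis genes fell with dTAG13. On day 2, 20 of the 39 were called lower and 1 higher, and on day 4, 26 were lower and 1 higher. Of all genes tested, 33.6% were called on day 2 (19.9% lower and 13.7% higher) and 41.8% on day 4 (26.0% lower and 15.8% higher). Groups of 2 that do not overlap are common in this table: that held for 67.9% of all genes on day 2 (40.3% lower and 27.6% higher) and 68.4% on day 4 (41.7% and 26.8%). The median difference over the 39 genes was -0.365 on day 2, against -0.09 over all genes, and -0.447 on day 4, against -0.133. On day 2, 38 of 39 genes lay below 0, and on day 4, 35, but the median of all genes lay below 0 too. The 38 include Rrn3, whose day 2 difference was 0.00 when rounded and changed sign in 6 of 15 alternatives. The gene called higher was Utp20 on both days. The summed value of the 39 genes was 5950 and 5751 TMM-scaled CPM in the day 2 DMSO libraries against 4603 and 4362 with dTAG13, and 5477 and 5280 against 3891 and 3934 on day 4, a sum in which nucleolin has a large part. All genes together also summed to less, at 837936.1 and 830502.1 with DMSO against 785679.0 and 783248.7 with dTAG13 on day 2. On day 4 they summed to 866931.3 and 825853.5 against 791922.5 and 816513.7. Day 2 and day 4 share no library, but 1 fit gave each gene the same estimate of spread on both days. The 2 lists of calls are therefore not independent. Of the 20 genes called lower on day 2, 18 were also lower on day 4 (90.0% of the first list and 69.2% of the second). For all genes the overlap was 77.6% and 59.4%.

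The size of the fall depended in part on scaling, and the median of all genes itself lay below 0. With median-ratio scaling it lay at -0.01 on day 2 and -0.029 on day 4, and the 39 genes remained below it by 0.267 and 0.302 at the median, against 0.275 and 0.315 with the deposited scaling. Median-ratio scaling called 17 of the 39 lower and 1 higher on day 2 and 22 lower and 1 higher on day 4. Over all genes it moved the share of calls that were higher from 40.7% to 52% on day 2 and from 37.8% to 49.1% on day 4. With quantile normalization the median of the 39 genes minus that of all genes was -0.219 on day 2 and -0.268 on day 4. It called 17 and 22 of the 39 lower and 1 higher on each day.

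**Figure D2:**
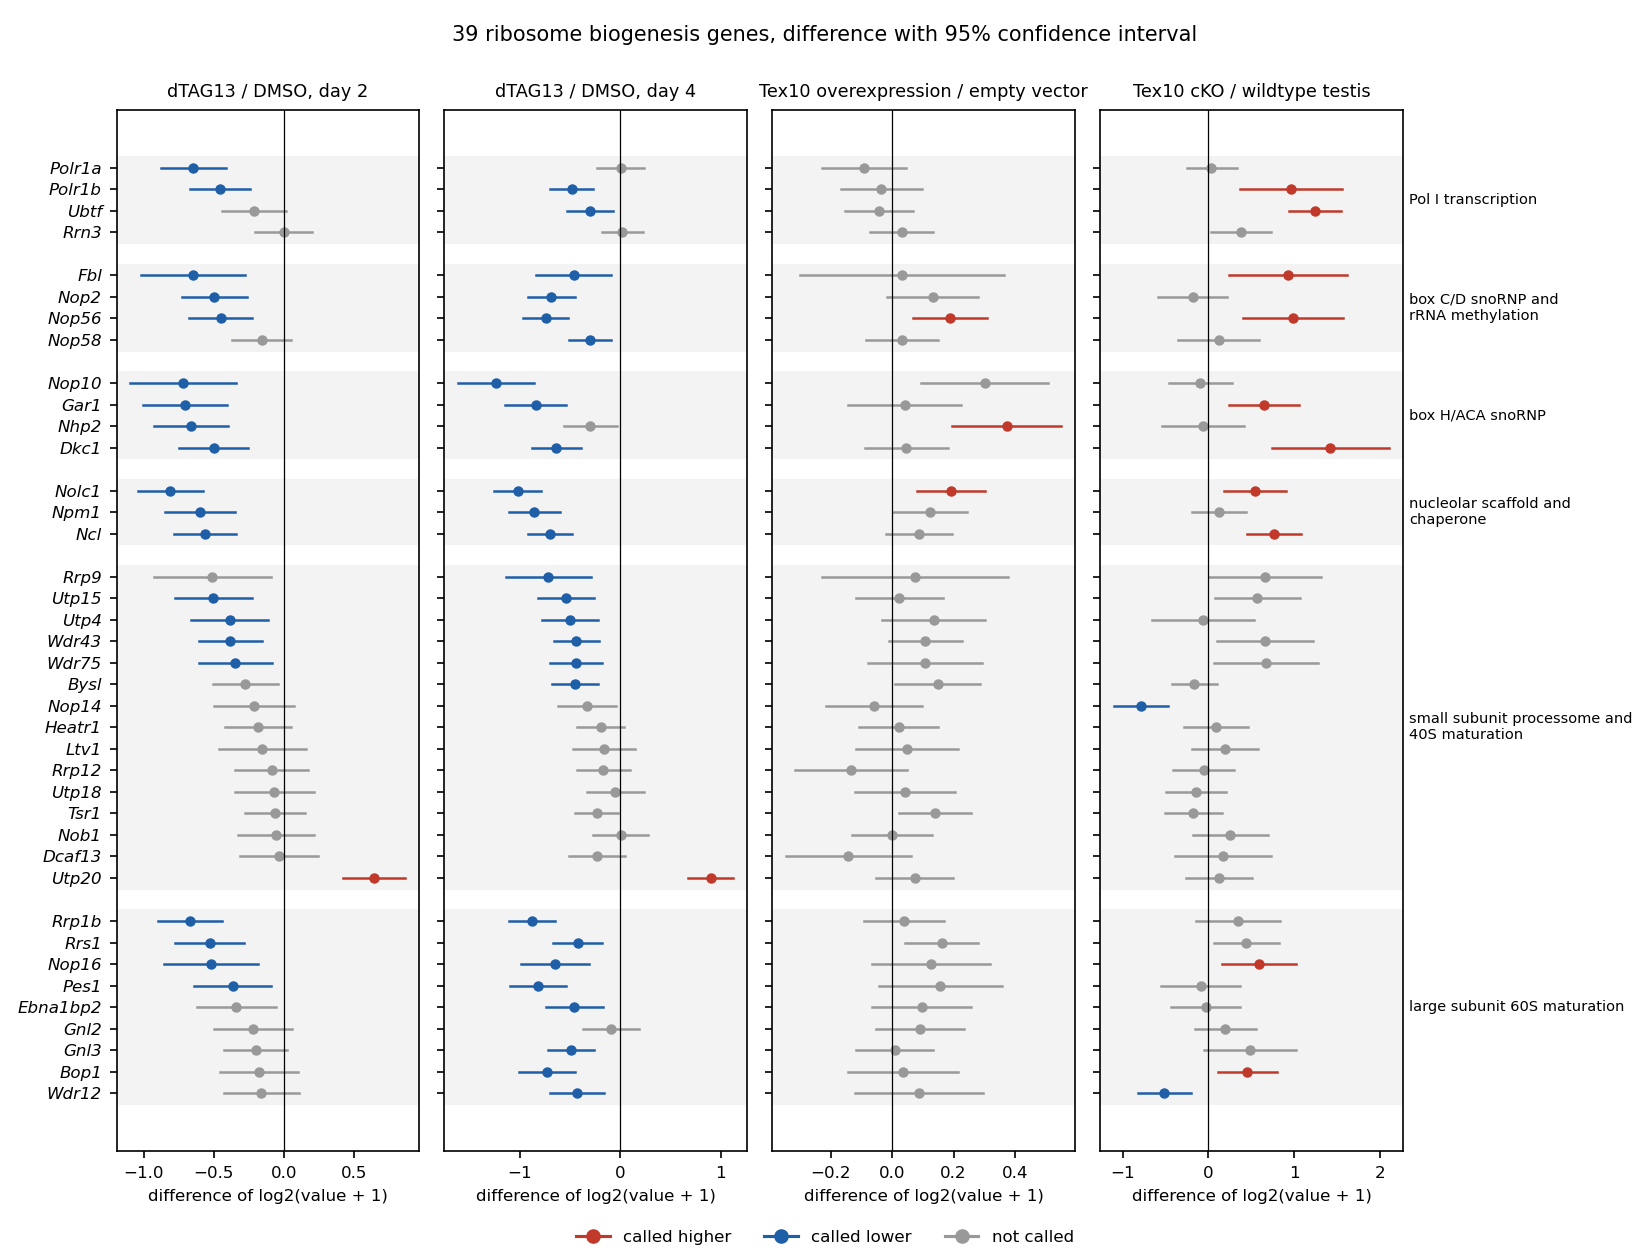
Points give the log2 difference of each of the 39 genes with its 95% confidence interval, ordered by role, for dTAG13 against DMSO on day 2 and day 4, overexpression against empty vector, and cKO against wildtype testis. Red marks genes called higher, blue genes called lower and grey genes not called. The 2 dTAG13 panels lie mostly left of 0 apart from Utp20, the overexpression panel lies near 0 with 3 genes called higher, and the testis panel has 10 called higher and 2 called lower.

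Of the 4 genes of RNA polymerase I transcription, 2 were called lower on each day: both polymerase subunits on day 2, and Polr1b and Ubtf on day 4. Of all genes, 19.9% were called lower on day 2 and 26.0% on day 4. Polr1b, a core subunit, stood at 119.4 and 120.2 with DMSO and at 88.12 and 85.88 with dTAG13 on day 2, and at 106.9 and 105.6 against 75.38 and 76.28 on day 4. It fell by 0.46 (SE 0.103, limma adjusted p = 0.00163) and 0.48 (SE 0.103, 0.000715), with no overlap between groups. Polr1a, the catalytic subunit, stood at 130.3 and 146.3 against 84.23 and 91.5 on day 2 and fell by 0.65 (SE 0.111, limma adjusted p = 0.000112). On day 4 its groups overlapped, at 108.2 and 120.4 with DMSO and 121.3 and 108.2 with dTAG13. Rrn3, which couples growth signals to polymerase I initiation, was at 192.6 and 193.1 against 198.9 and 186.9 on day 2 and at 183.4 and 170.9 against 178.6 and 180.4 on day 4. The groups overlapped on both days, and the 95% interval of the difference ran from -0.20 to 0.20 and from -0.18 to 0.22. Ubtf, an rDNA-binding factor, was called lower on day 4, at -0.30 (SE 0.11, limma adjusted p = 0.0347), but not on day 2, at -0.21 (SE 0.11, 0.141).

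Polr1a was the single gene of the 39 for which the dTAG13 difference itself differed between the days. Its difference was higher on day 4 than on day 2 by 0.65 (SE 0.157, 95% interval 0.33 to 0.98, limma adjusted p = 0.04), in a test that called 1.25% of all genes, 208 of them (0.771% higher and 0.482% lower), and 12.1% at an unadjusted p under 0.05. The call was lost when any library other than day 4 DMSO replicate 2 was left out of the 8 PGCLC libraries, and without a filter on low values, without a variance trend or with only these 8 libraries fitted. The next of the 39 genes in this test, Bop1, had an adjusted p of 0.198 by limma. Polr1a lies on chromosome 6 (chr6:71909053-71984935, plus strand), where genes as a whole were lower with dTAG13 on day 2: the median of 817 genes there lay 0.268 below that of genes on the other autosomes, and for each of those autosomes the same offset ranged from -0.051 to 0.094. On day 4 the chromosome 6 offset was -0.116, against -0.076 to 0.107 on the other autosomes. For the difference between the days it was 0.164, against -0.066 to 0.037. The 20 tested genes nearest to Polr1a had a median of -0.40 on day 2 and -0.21 on day 4, and 17 of 20 lay below 0 on day 2. For the difference between the days their median was 0.256, with 4 of 20 below 0. Nop2 lies on the same chromosome, and its 20 neighbours had medians of -0.394 and -0.369. On the X chromosome, which holds Dkc1 and Las1l, the offset was -0.135 on day 2 and -0.039 on day 4. The 20 neighbours of Npm1 had medians of -0.396 and -0.324. The part of the chromosome or neighbourhood in the differences of these genes was not tested.

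The next group holds the box C/D proteins Fbl, Nop56 and Nop58 and the stand-alone rRNA methyltransferase Nop2. Of the 4, 3 were called lower on day 2, all but Nop58, and all 4 on day 4, against 19.9% and 26.0% of all genes. Nop56, which holds the particle together with Nop58, stood at 157.7 and 167.5 with DMSO and at 113.1 and 124.1 with dTAG13 on day 2, and at 161.4 and 158.8 against 88.73 and 102.7 on day 4, without overlap. It fell by 0.45 (SE 0.109, limma adjusted p = 0.00275) and 0.74 (SE 0.109, 1.09e-05). Nop2, which methylates cytosine in rRNA, fell by 0.50 (SE 0.112, limma adjusted p = 0.00152) and 0.68 (SE 0.112, 4.15e-05). Fbl, the methyltransferase fibrillarin, was called lower at -0.65 and -0.46, and with its copies added the differences were -0.45 (limma adjusted p = 0.00212) and -0.69 (1.52e-05). Nop58 moved least: it was at 217.8 and 224.9 against 212 and 185.3 on day 2 and at 238.3 and 231 against 186.8 and 194 on day 4. Its day 4 difference of -0.30 (SE 0.101, limma adjusted p = 0.0207) was no longer called by edgeR (-0.18) or DESeq2 (-0.17), with other scalings, or without either dTAG13 library.

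All 4 box H/ACA genes were called lower on day 2 and 3 on day 4, against 19.9% and 26.0% of all genes. Nop10, the smallest core protein of the particle, stood at 33.2 and 38 with DMSO against 20.67 and 21.67 with dTAG13 on day 2. On day 4 it stood at 41.89 and 31.86 against 14.52 and 15.41, and the differences were -0.72 (SE 0.181, limma adjusted p = 0.00385) and -1.23 (SE 0.181, 1.06e-05), the latter the largest fall among the 39 genes on day 4. Gar1 was at 69.42 and 55.37 against 41.5 and 33.98 on day 2 and at 65.41 and 53.87 against 33 and 32.42 on day 4. Neither day showed overlap for Gar1, and it fell by 0.71 (SE 0.144, limma adjusted p = 0.000637) and 0.84 (SE 0.144, 6.91e-05). Dkc1, the pseudouridine synthase dyskerin, which also serves telomerase, was at 148.9 and 127.8 against 106.8 and 88.43 on day 2 and at 141.9 and 120.4 against 84.18 and 83.59 on day 4. It fell by 0.50 (SE 0.118, limma adjusted p = 0.00229) and 0.63 (SE 0.118, 0.000171). Without day 2 DMSO replicate 1 or day 2 dTAG13 replicate 2 its day 2 difference was -0.39 or -0.37 and was not called. Nhp2 fell by 0.67 on day 2 (SE 0.127, limma adjusted p = 0.000343) and was at -0.30 on day 4 (SE 0.127, 0.0658), where the DMSO libraries had themselves come down to 85.81 and 76.17 from 135.8 and 120.5.

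The 3 abundant nucleolar scaffolds and chaperones were all called lower on both days, against 19.9% of all genes on day 2 and 26.0% on day 4. Nolc1, which ferries and assembles snoRNPs, had 238.6 and 202.3 TMM-scaled CPM with DMSO and 129.6 and 120.4 with dTAG13 on day 2, and 207.4 and 191.6 against 89.9 and 106.5 on day 4. It fell by 0.81 (SE 0.111, limma adjusted p = 8.13e-06), the largest fall among the 39 on day 2, and on day 4 its difference was -1.019 (SE 0.111, 1.93e-07). Ncl (nucleolin) was at 1754 and 1542 against 1149 and 1078, and on day 4 at 1442 and 1361 against 856.9 and 870.4. It fell by 0.56 (SE 0.107, limma adjusted p = 0.000312) and 0.70 (SE 0.107, 1.77e-05). Npm1 (nucleophosmin), with the reservation about its copies, was at 410.9 and 428.7 against 298.9 and 256 and on day 4 at 472.6 and 355.2 against 225.3 and 227.9. In all 3 genes every dTAG13 library lay below every DMSO library of its day, as in 40.3% of all genes on day 2 and 41.7% on day 4.

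**Figure D3:**
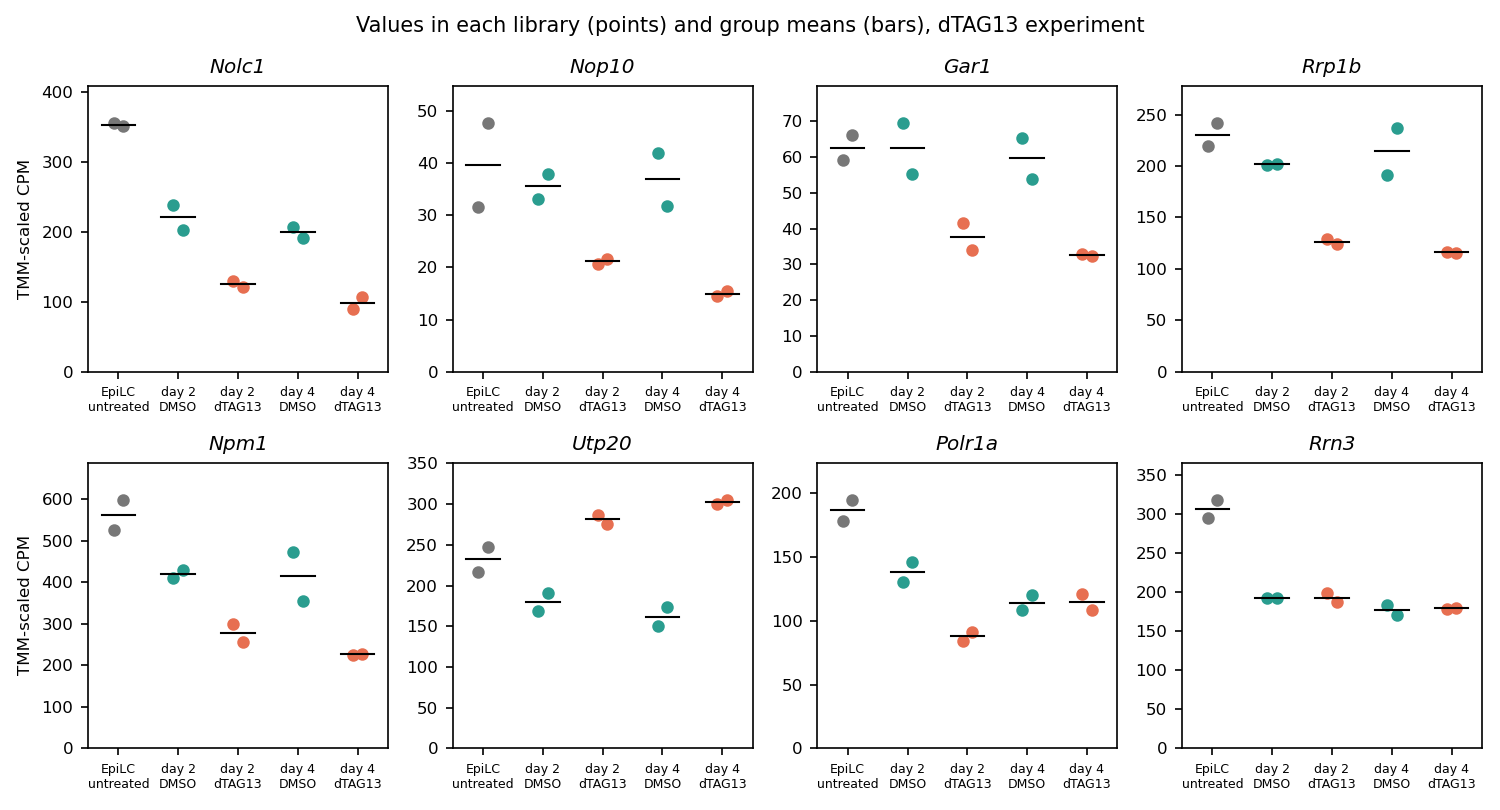
Points give the TMM-scaled CPM of 8 genes in each of the 10 dTAG13 libraries, and bars the mean of each group of 2. Nolc1, Nop10, Gar1, Rrp1b and Npm1 are lower with dTAG13 on both days, Polr1a is lower on day 2 alone, Rrn3 overlaps on both days, and Utp20 is higher, at 287.2 and 275.3 against 168.9 and 190.5 on day 2.

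In the small subunit group the share of genes called was near that of all genes. With Utp20 included, 33.3% were called on day 2 and 46.7% on day 4, against 33.6% and 41.8% of all genes. Of its 15 genes, 4 were called lower on day 2 (Utp15, Utp4, Wdr43 and Wdr75), and 6 on day 4, when Rrp9 and Bysl were added. Wdr43, Wdr75, Utp4 and Utp15, all processome proteins, fell by between 0.35 and 0.51 on day 2 and between 0.43 and 0.54 on day 4. The group median was -0.183 on day 2 and -0.232 on day 4, against -0.6 and -0.852 for the scaffolds and -0.687 and -0.737 for box H/ACA. Nob1, the nuclease that makes the last cut in small subunit rRNA, was at -0.05 (95% interval -0.33 to 0.22) on day 2 and 0.01 (-0.27 to 0.28) on day 4, and was not called. Ltv1, Rrp12, Tsr1, Utp18, Heatr1, Dcaf13 and Nop14 were also not called on either day, with differences between -0.33 and -0.04. For Tsr1, 32.3% of the exonic bases overlap Srr on the opposite strand, and the strand setting of the counting is not given in the sources used here.

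Utp20 was the only one of the 39 genes called higher with dTAG13. It is a large scaffold protein of the small subunit processome and lies at chr10:88746607-88826804 on the minus strand. Its values were 168.9 and 190.5 with DMSO and 287.2 and 275.3 with dTAG13 on day 2. On day 4 they were 149.7 and 174 against 299.8 and 305.4. The groups did not overlap on either day, and 27.6% of all genes on day 2 and 26.8% on day 4 were higher without overlap. Utp20 rose by 0.65 on the log2 scale (SE 0.107, limma adjusted p = 7.79e-05) and 0.90 (SE 0.107, 6.52e-07), and in EpiLCs it stood at 217.2 and 246.9, between the DMSO and dTAG13 values of either day. The 20 tested genes nearest to it had medians of -0.053 and -0.104. The call held in every alternative tried for it on both days.

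Most large subunit genes were called lower on day 4. Of 9 genes, 4 were called lower on day 2 (44.4%), where 19.9% of all genes were lower and 33.6% called. On day 4, 8 were called lower (88.9%), where 26.0% of all genes were lower and 41.8% called. Gnl2 was the exception on day 4, at -0.09 (SE 0.133, limma adjusted p = 0.626). Rrp1b, which associates with precursors of the large subunit, was at 201.2 and 202.1 against 128.8 and 124 on day 2 and at 191.7 and 237 against 116.2 and 115.7 on day 4. It fell by 0.67 (SE 0.109, limma adjusted p = 6.19e-05) and 0.87 (SE 0.109, 1.28e-06). Pes1, Bop1 and Wdr12 form a complex that processes large subunit rRNA. Their differences were -0.36, -0.18 and -0.16 on day 2, where Pes1 alone was called, and -0.81, -0.73 and -0.42 on day 4, where all 3 were. With copies added, Wdr12 was called on day 2 too, at -0.35 (limma adjusted p = 0.0191). Gnl3 (nucleostemin), a GTPase found in stem cells, went from -0.20 (limma adjusted p = 0.167) to -0.49 (0.00106). None of these differences between the days was called by the test of the difference itself.

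Other genes of ribosome production and of the ribosome itself were called lower more often than higher, as were all genes (19.9% lower and 13.7% higher on day 2, 26.0% and 15.8% on day 4). Of 91 further biogenesis factors, 31 were called lower and 3 higher on day 2, and 40 lower and 4 higher on day 4, with medians of -0.228 and -0.297. That is 37.4% and 48.4% called, against 33.6% and 41.8% of all genes. The largest included the exosome subunits Exosc3, at -0.76 and -0.86, and Exosc5, at -0.52 and -1.03. Brix1, a large subunit factor, rose by 0.83 on day 4 (SE 0.119, limma adjusted p = 7.82e-06). Of 79 cytosolic ribosomal protein genes, 21 were called lower and 0 higher on day 2 and 51 lower and 0 higher on day 4, with medians of -0.312 and -0.541, and Rpl27 fell by 1.03 on day 2. The share called was 26.6% on day 2, below the 33.6% of all genes, and 64.6% on day 4, above the 41.8%. Ribosomal protein genes are known for their many processed copies, and those copies were not examined here.

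Markers of p53 activity, proliferation and cell state moved alongside. For comparison, 19.9% of all genes were called lower and 13.7% higher on day 2, and 26.0% and 15.8% on day 4. Of 12 p53 targets known from ribosome stress, 11 were called higher on day 2 and 12 on day 4, with medians of 1.108 and 1.599. Mdm2, the ubiquitin ligase of p53, rose by 2.33 (SE 0.097, limma adjusted p = 2.69e-13) and 3.00 (SE 0.097, 1.22e-15). Their summed value was 1854 to 1889 with DMSO and 4888 to 4924 with dTAG13 on day 2, and 1405 to 1533 against 5553 to 5789 on day 4. Of 12 proliferation markers 11 were called lower on day 2 and 12 on day 4, and the sum went from 2623 to 2696 down to 1686 to 1697 on day 2 and from 2413 to 2708 down to 1536 to 1613 on day 4. In the Myc network of 10 genes, 3 were called lower and 2 higher on day 2 and 4 lower and 2 higher on day 4, with medians of -0.217 and -0.248. Myc was called lower on both days, by 0.56 (SE 0.153, limma adjusted p = 0.00693) and 0.64 (SE 0.153, 0.00185), and the Max partner Mxd4 rose by 2.604 and 3.06. The part of these lists in the fall of the 39 genes was not tested.

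Markers of other cell states also shifted with dTAG13. The shares of all genes called were 19.9% lower and 13.7% higher on day 2, and 26.0% and 15.8% on day 4. The 10 epiblast and pluripotency markers summed to 2502 to 2688 with DMSO and 1373 to 1491 with dTAG13 on day 2, and 2845 to 3291 against 1461 to 1683 on day 4, with 6 of 10 lower and 1 higher on each day. PGC markers summed to 260.3 to 274.9 against 233.2 to 247.4 on day 2, with 3 of 9 lower and 1 higher. On day 4 their sums overlapped, at 300.1 to 332.2 with DMSO and 300.9 to 301.1 with dTAG13, with 3 lower and 2 higher. Of 10 mesoderm and endoderm markers 4 were tested, and 2 of these, Hand1 and Gata6, were called higher on each day. The sum over all 10 went from 13.83 to 16.83 up to 36.68 to 46.15 on day 2 and from 20.01 to 21.27 up to 43.41 to 45.45 on day 4. The defining markers T, Mesp1, Mixl1, Sox17, Foxa2 and Kdr had means under 1. In bulk libraries fewer cells of a type and less RNA per cell cannot be told apart, and the part of these shifts in the results was not tested.

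Many of the 39 genes also came down between EpiLCs and PGCLCs without dTAG13. From untreated EpiLCs to day 2 DMSO, 14 of the 39 were called lower and 1 higher, where 26.2% of all genes were called, 14.7% lower and 11.5% higher. With quantile normalization 4 were lower and 1 higher, and the median of the 39 went from -0.244 to -0.065. Proliferation markers were called lower in 11 of 12 in the same step, with a median of -0.46, and their part was not tested. Dkc1 went from 236.4 and 242.8 to 148.9 and 127.8 and fell by 0.79 (SE 0.118, limma adjusted p = 2.68e-05). Nolc1 went from 354.8 and 350.6 to 238.6 and 202.3, at -0.68 (SE 0.111, limma adjusted p = 8.27e-05). Rrn3, which was not called with dTAG13 on either day, went from 295.6 and 318.5 to 192.6 and 193.1, at -0.67 (SE 0.098, limma adjusted p = 2.3e-05). The box C/D proteins Fbl, Nop56 and Nop58, and Nop2, were not called in this step. Nop16, a large subunit factor, rose from 19.65 and 24.26 to 32.32 and 35.56, at 0.61 (SE 0.163, limma adjusted p = 0.00755), but its call was lost without EpiLC replicate 1 or day 2 DMSO replicate 2. With its copies added, Npm1 was no longer called in this step, at -0.33 (limma adjusted p = 0.0538), against -0.42 (0.0135) without them. The count of 15 was 8 without EpiLC replicate 2 or without either day 2 DMSO library. From day 2 to day 4 with DMSO only Nhp2 was called, lower by 0.66 (SE 0.127, limma adjusted p = 0.00236), where 5.52% of all genes were called (3.08% lower and 2.44% higher), and not without day 2 DMSO replicate 1.

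The same step was read in the overexpression experiment, over the empty-vector line and both clones. Of the 39 genes 27 were called lower from EpiLC to day 2 and 0 higher, against 46.3% of all genes called, 22.1% lower and 24.1% higher. All 14 genes called lower in the dTAG13 controls were among these 27 (51.9% of them), where for all genes the overlap was 59.3% and 43.7% of the lists. Npm1, Dkc1 and Ncl fell by 0.82, 0.91 and 0.79 (limma adjusted p = 1.04e-09, 1.52e-09 and 6.09e-10). Unlike in the dTAG13 controls, Nop56 and Nop2 were called lower here, at -0.63 (limma adjusted p = 2.97e-07) and -0.40 (0.00139). Nop58 was at -0.41, and Fbl was not called, at -0.08 (limma adjusted p = 0.785). Nop16, called higher in the dTAG13 controls, was at 0.05 here and was not called higher. From day 2 to day 4, 11 were called lower and 0 higher, against 23.0% of all genes called, 11.9% lower and 11.1% higher. Nhp2, Nop10 and Wdr12 led them at -0.66 (SE 0.119), -0.60 (SE 0.138) and -0.55 (SE 0.139), with limma adjusted p = 0.000132, 0.00176 and 0.00468. With copies added, Fbl and Pes1 were called lower in this step too, at -0.30 (limma adjusted p = 0.00502) and -0.41 (0.000145). Leaving out either overexpression clone lowered the 11 to 5. From day 4 to day 6 limma, edgeR and DESeq2 each called 0 of the 39, with 7 at an unadjusted p under 0.05 by limma, where 6.88% of all genes were called (3.38% lower and 3.49% higher). Without the empty-vector line that last count was 6.

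**Figure D4:**
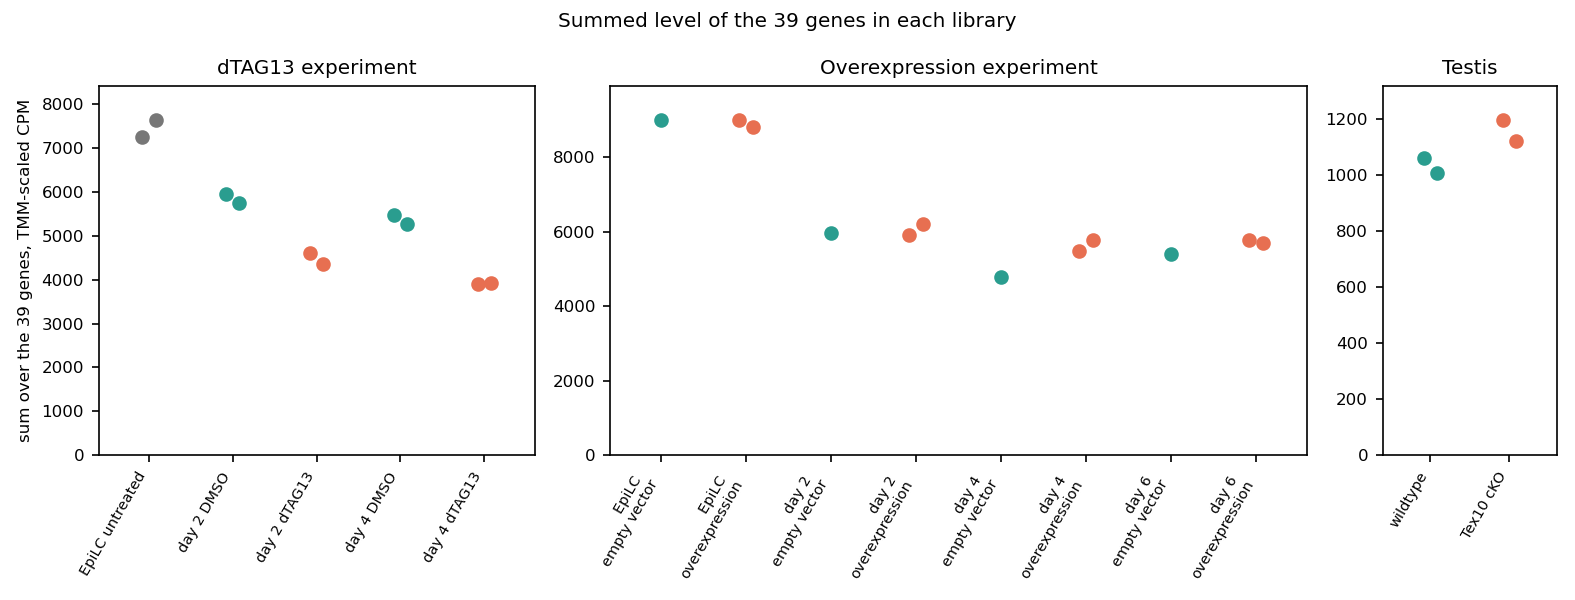
Points give the summed TMM-scaled CPM of the 39 genes in each library of the 3 tables, on axes that are not comparable between tables. In the dTAG13 table the sums go from 7254 and 7653 in EpiLCs to 3891 and 3934 on day 4 with dTAG13, in the overexpression table from 8983 in empty-vector EpiLCs to 4770 on day 4, and in testis the cKO libraries, at 1197 and 1121, stand above wildtype, at 1060 and 1005.

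With dTAG13 the genes lay lower still. Against the mean of untreated EpiLCs, the median of the 39 genes was -0.291 and -0.186 in the 2 day 2 DMSO libraries and -0.533 and -0.586 in those with dTAG13. On day 4 it was -0.261 and -0.283 with DMSO and -0.777 and -0.765 with dTAG13. All 4 dTAG13 libraries thus lay below all 4 DMSO libraries by this measure, which uses the same EpiLC libraries for each.

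With Tex10 overexpression few of the 39 genes were called. Across the 4 stages 3 were called higher and 0 lower, against 8.76% of all genes called, 4.54% higher and 4.22% lower, and the median was 0.074 against 0.006 over all genes. The control arm is a single empty-vector line whose libraries at the 4 stages stand in for replicates, so Tex10 level and differences between lines cannot be told apart in these p-values. Nolc1 was higher in both clones than in the empty vector at every stage, which held for 5.72% of all genes (5.59% were lower at every stage, 11.3% in all). In EpiLCs it stood at 461.3 with the vector and 479.7 and 469.2 in the clones, on day 2 at 283.6 against 310.9 and 309.4, on day 4 at 203.4 against 259.2 and 276.3, and on day 6 at 253 against 296.4 and 287.5. It rose by 0.19 (SE 0.054, limma adjusted p = 0.0225). Nhp2 rose by 0.37 (SE 0.087, limma adjusted p = 0.006), from 79.44 to 99.06 and 120 on day 2 and from 43.83 to 70.69 and 75.41 on day 4. In EpiLCs Nhp2 in the clones, at 113.5 and 100.8, was below the vector at 114.9. Nop56 rose by 0.19 (SE 0.059, limma adjusted p = 0.0435), with 1 clone below the vector in EpiLCs. None of the 3 calls remained when either clone was left out or when day 4 or day 6 was left out.

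Differences within a stage were described without a test, because each stage had 1 empty-vector library and its own variation cannot be told apart from that of the line. On day 4, 34 of the 39 genes were higher in both clones than in the vector and 2 lower, where over all genes the shares were 38.7% and 37.2%. In EpiLCs 9 were higher and 20 lower in both clones (38.7% and 37.1% of all genes), on day 2, 15 and 12 (37.1% and 36.8%), and on day 6, 19 and 6 (36.2% and 35.5%). Medians by clone were 0.236 and 0.258 on day 4, -0.01 and -0.07 in EpiLCs, -0.026 and 0.06 on day 2 and 0.084 and 0.046 on day 6. The day 4 empty-vector library had the lowest summed value of the 12, at 4770 against 5476 and 5784 in the clones. The Tex10 difference was itself unequal, at 0.88 and 0.85 in EpiLCs, 1.19 and 1.03 on day 2, 1.71 and 1.74 on day 4 and 2.17 and 2.16 on day 6. Rrp1b was below the vector in both clones on day 2, at 184.1 and 195 against 226, and above it on day 6, at 239.7 and 229.2 against 191.4.

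**Figure D5:**
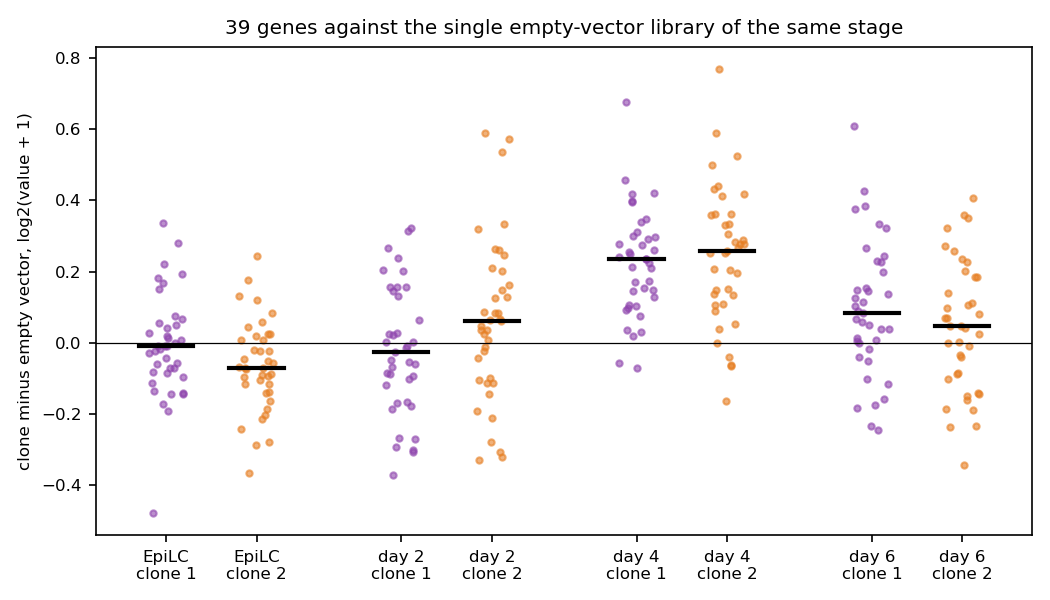
Each point is the log2 difference between a Tex10 overexpression clone and the empty vector for 1 of the 39 genes, by stage and clone, and bars mark the median. On day 4 the medians are 0.236 and 0.258, while in EpiLCs they are -0.01 and -0.07.

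The 6 genes with the highest mean of their role groups in the dTAG13 table were not called with overexpression. Differences were 0.03 for Rrn3 (95% interval -0.07 to 0.13), 0.03 for Nop58 (-0.09 to 0.15), 0.05 for Dkc1 (-0.09 to 0.18), 0.09 for Ncl (-0.02 to 0.19), 0.07 for Utp20 (-0.05 to 0.20) and 0.04 for Rrp1b (-0.09 to 0.17). Utp20, which rose with dTAG13, stood on day 6 at 115.2 with the vector and 118.3 and 112 in the clones. With processed copies added, Npm1 and Pes1 were called higher too, by 0.19 (limma adjusted p = 0.0298) and 0.18 (0.0351). Of 91 further biogenesis factors 15 were called higher and 1 lower, where 4.54% of all genes were called higher and 4.22% lower. They were led by the polymerase subunit genes Polr1d at 0.48 and Polr1f at 0.41. Among 78 ribosomal protein genes tested limma called 0, with 8 at an unadjusted p under 0.05. Of the 12 p53 targets limma called 0, with 3 at an unadjusted p under 0.05.

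In testis 12 of the 39 genes were called, 10 higher in cKO and 2 lower. That is about the share of all genes called, 29.1%, of which 16.1% were higher and 13.1% lower. The median was 0.198 against 0.013 over all genes, with quantile normalization 0.114 against -0.052, and without wildtype replicate 1 it was 0.349. The 10 were Dkc1, Ubtf, Nop56, Polr1b, Fbl, Ncl, Gar1, Nop16, Nolc1 and Bop1. Without cKO replicate 1 the count of 12 was 6 and without cKO replicate 2 it was 5, and with quantile normalization it was 5, 3 higher and 2 lower.

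Dkc1 was at 2.226 and 1.57 TMM-scaled CPM in wildtype and 7.104 and 6.353 in cKO, and rose by 1.42 (SE 0.319, limma adjusted p = 0.00483). It lies on the X chromosome, whose median lay 0.568 above that of autosomal genes in this comparison. Ubtf was at 33.39 and 30.29 against 80.38 and 73.7 and rose by 1.25 (SE 0.142, limma adjusted p = 8.36e-05). The groups did not overlap for either gene, as for 66.3% of all genes (34.8% higher and 31.5% lower). Nop56 was at 5.479 and 4.552 against 9.612 and 12.33, at 0.99 (SE 0.273, limma adjusted p = 0.0152), and was not called without cKO replicate 2, at 0.82. Polr1b was at 4.109 and 4.709 against 8.776 and 10.29, at 0.96 (SE 0.278, limma adjusted p = 0.0192), and was not called without either cKO library or by DESeq2. Ncl was at 47.94 and 43.79 against 88.04 and 70.52, at 0.77 (SE 0.146, limma adjusted p = 0.00181), and its call was lost in 1 of the 14 alternatives tried for it. Fbl was called at 0.93 (SE 0.323, limma adjusted p = 0.044), but with its copies added the difference was 0.21 and was not called (limma adjusted p = 0.213).

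The 2 genes called lower in cKO were Nop14 and Wdr12. Nop14, of the small subunit processome, was at 58.55 and 69.85 in wildtype and 36.78 and 36.47 in cKO, a fall of 0.79 (SE 0.146, limma adjusted p = 0.00153). Its call was lost in 1 of the 14 alternatives tried for it. Wdr12 was at 52.05 and 58.55 against 39.98 and 36.85, a fall of 0.51 (SE 0.145, limma adjusted p = 0.0169), and was not called without cKO replicate 2 or wildtype replicate 2. No gene of the 15 in the small subunit group was called higher. Rrn3 was at 25.17 and 24.8 against 35.24 and 30.62 (limma adjusted p = 0.0976), Utp20 at 20.03 and 19.93 against 21.31 and 22.49 (0.637), Rrp1b at 15.92 and 10.67 against 17.13 and 16.65 (0.275), and Nop58 at 28.25 and 16.79 against 24.52 and 23.13 (0.719). The cKO libraries lay inside the wildtype range for Nop58.

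The makeup of the testis libraries differed between genotypes. Sertoli cell markers were called higher in 8 of 8, summing to 242.5 to 270.8 in wildtype and 610.4 to 707.6 in cKO, and Leydig cell markers in 6 of 7, at 246.4 to 360.0 against 607.1 to 1008. Macrophage markers were higher in 4 of 6 tested, at 52.27 to 59.58 against 96.32 to 148.4, and spermatogonia markers in 4 of 7, at 149.3 to 159.1 against 213.3 to 214.4. Spermatid markers were lower in 7 of 8, at 20000 to 22470 against 14580 to 15150. The part of these shifts in the testis result was not tested. Of the 91 further biogenesis factors 14 were called higher and 3 lower, with a median of 0.253, but their summed value was not higher in cKO, at 2740 and 2817 against 2797 and 2912 in wildtype. Among 72 ribosomal protein genes tested here, 10 were called higher and 0 lower. These shares, 18.7% of the further factors and 13.9% of the ribosomal protein genes, lie below the 29.1% of all genes called. Of 11 p53 targets 7 were higher and 0 lower, among them Phlda3 at 1.97 (SE 0.3, limma adjusted p = 0.000468).

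All 10 genes called higher in cKO testis were called lower with dTAG13 on day 4, which is 38.5% of the 26. On that day 26 of the 39 were lower whatever their testis call, and of the 2 genes lower in testis Wdr12 was also lower with dTAG13. The 10 include Fbl, whose testis call was lost with its copies added, and with quantile normalization only 3 of the 39 were called higher in testis. For all genes tested in both tables, 31.9% of those higher in testis were lower on day 4, and 23.8% of those lower on day 4 were higher in testis. On day 2, 8 of the 10 were called lower (80.0%, against 24.8% of all genes higher in testis). The experiments share no library. Bulk testis and cultured cells were scaled in separate tables, so no level was set across them.

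Promoters of 32 of the 39 genes were matched by symbol in the RefSeq table for GRCm38.p6, each a window from 250 bases before to 50 after a start site. The E-box CACGTG, the same on both strands and a sequence that Myc with Max is known to bind, was in the window of 9 of the 32 genes (28.1%): Ltv1, Nop2, Pes1, Rrn3, Tsr1, Utp18, Utp20, Utp4 and Wdr43. Of all 27025 genes with such windows 8.09% held it, of the further biogenesis factors 13.5% and of the ribosomal protein genes 10.3%. CCAAT on either strand was in 13 of 32 (40.6%), against 41.1% of all genes. Of the 9 genes with an E-box 4 were called lower on day 4, 1 higher and 4 not called, with a median of -0.232, and of the 23 without one 18 were called lower, with a median of -0.481. This count was made after the values were seen and has no test, and a match is not evidence of binding.

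Promoters are shown for the member that rose, for the one with the largest fall on day 4, and for a falling gene with an E-box. Capitals mark CACGTG and CCAAT or its reverse complement, and sequences run in the direction of transcription. Utp20 (chr10:88826765-88827064, minus strand) holds both motifs, Nop10 (chr2:112261676-112261975, plus strand) CCAAT alone and Pes1 (chr11:3963725-3964024, plus strand) the E-box alone.
Utp20: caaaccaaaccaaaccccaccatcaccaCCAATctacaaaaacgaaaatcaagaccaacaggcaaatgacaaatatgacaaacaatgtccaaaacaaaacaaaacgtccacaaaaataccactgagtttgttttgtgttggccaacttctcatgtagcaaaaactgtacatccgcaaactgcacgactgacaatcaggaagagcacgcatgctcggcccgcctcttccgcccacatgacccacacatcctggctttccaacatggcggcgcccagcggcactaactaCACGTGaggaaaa
Nop10: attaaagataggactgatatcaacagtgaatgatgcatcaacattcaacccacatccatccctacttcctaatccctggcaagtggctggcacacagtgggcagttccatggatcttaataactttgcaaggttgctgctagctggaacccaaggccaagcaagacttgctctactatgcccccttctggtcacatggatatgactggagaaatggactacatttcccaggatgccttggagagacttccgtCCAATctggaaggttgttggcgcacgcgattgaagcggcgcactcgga
Pes1: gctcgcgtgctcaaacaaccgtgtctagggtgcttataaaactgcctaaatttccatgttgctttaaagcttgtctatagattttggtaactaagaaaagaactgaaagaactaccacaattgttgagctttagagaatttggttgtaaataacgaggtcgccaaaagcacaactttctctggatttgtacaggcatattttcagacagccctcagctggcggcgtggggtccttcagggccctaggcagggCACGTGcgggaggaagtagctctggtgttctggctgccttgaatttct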

How the data were processed

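The members and lists were chosen with earlier results of these data known. RNA was extracted with Trizol and libraries were made with a NuGEN Ovation kit (dTAG13 and testis) or a TECAN Universal Plus kit (overexpression), per the labels' protocols. The submitters' processing notes name Bowtie2 2.3.4.3, SAMtools 1.9, HTSeq 0.11.2, edgeR 3.26.8 and mm10, and the strand setting of the counting is not given in the sources used here. The deposited signal is TMM-scaled CPM, computed by the authors in 3 separate tables. The authors also deposited log2 fold changes and p-values with adjusted p-values, used only where their table is named.

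Values came in whole multiples of what 1 read is worth, so whole reads were recovered for 100% of values (within 0.05 reads); for day 4 DMSO replicate 2 the step of 0.0996 is too near 0.1 for an independent check. The design allowed for raw counts, which the columns were not, so limma 3.58.1 in R 4.3.3, with a variance trend on log2(value + 1), was the main test. Genes with a mean of at least 1 in a table were tested: 16605, 15255 and 20658 in the dTAG13, overexpression and testis tables. Groups of a table shared 1 estimate of spread. Stage was a covariate for overexpression and line for the stage steps of that table. Counts by edgeR 4.0.16 and DESeq2 1.42.0 on the recovered reads (edgeR called 5033 genes on day 2, 6407 on day 4, 1285 with overexpression and 5904 in testis), other filters, scalings and pseudocounts, and leaving out each library were alternatives. Processed copies were found with minimap2 2.31-r1302 (at least 300 matched bases and 85% identity). The scripts were tested on simulated data.

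Named genes followed a rule. Each comparison of dTAG13, overexpression and cKO gave up to 4 called members with the largest rise and 4 with the largest fall whose groups did not overlap, and each role group gave its member with the highest mean in the dTAG13 table. Each stage step gave up to 3 called members per direction, and each other list up to 3 called genes. Further members were named after their values were seen. Pairing by replicate number rested on 2 pairs per comparison and on no label, so it was an alternative only.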

Additional observations from a re-analysis of the deposited data

Results flagged for a closer look

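Polr1a differed between day 2 and day 4 in its response to dTAG13, by 0.653 on the log2 scale in the limma interaction test, with the values of each library and of its chromosome given above. The call was lost when any of 7 of the 8 PGCLC libraries was left out, and without the filter on low values, without the variance trend or with only the groups compared.

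The other results singled out come from the overexpression experiment, where both clones lay on one side of the empty vector at 1 stage and both on the other side at another. These differences were not tested, and each stage has 1 empty-vector library. The pattern was common: 27 of the 39 genes (69.2%) and 54.5% of all genes tested showed it between some pair of stages, and the genes given here are those the naming rule covers. Over the 39 genes the median difference was higher on day 4 than in EpiLCs by 0.287 and on day 6 than in EpiLCs by 0.105. For Rrp1b it was higher on day 4 than in EpiLCs by 0.199 and than on day 2 by 0.411, and on day 6 by 0.332 and 0.544. Utp20 was higher against the vector on day 2 than in EpiLCs by 0.06 and on day 4 by 0.373. Rrn3 was higher on day 4 than in EpiLCs by 0.177. Dkc1 was higher on day 4 than on day 6 by 0.452. Nop58 went the other way, with day 4 lower than EpiLCs by 0.108 and than day 2 by 0.204.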

How the results depend on the processing

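For 47 named results there were 681 alternatives: 632 kept direction and side of the threshold, 33 lost the call and 16 changed sign, all for genes not called either way. Rrn3 on day 2, at 0.00, was 0.09 with median-ratio scaling and with quantile normalization, 0.095 by edgeR, 0.103 by DESeq2, and 0.002 and 0.045 without DMSO or dTAG13 replicate 2, and on day 4 it ran from -0.031 without DMSO replicate 2 to 0.071 without DMSO replicate 1. With overexpression, leaving out day 4 gave -0.002 for Rrn3, -0.04 for Dkc1, -0.011 for Utp20 and -0.001 for Rrp1b, leaving out day 2 gave -0.007 for Nop58, and leaving out day 6 gave -0.045 for Rrp1b. In testis Nop58 was -0.04 and Utp20 -0.056 with quantile normalization, and Nop58 ran from -0.237 without wildtype replicate 2 to 0.48 without wildtype replicate 1. The median over the 39 genes on day 2 was -0.277 with median-ratio scaling, -0.275 with quantile normalization, -0.279 by edgeR and -0.272 by DESeq2, and -0.386 to -0.293 when a library was left out. On day 4 it was -0.331, -0.334, -0.33 and -0.324, and -0.452 to -0.42. The count of genes differing between the days, 1, became 0 without the filter, without the variance trend or with only the groups compared, and 0 to 1 without a library. From EpiLC to day 2 DMSO, 15 became 8 without the filter, 5 with quantile normalization, 6 without the trend and 8 to 13 without a library. From day 2 to day 4 DMSO, 1 became 0 without the filter or the trend and 0 to 1 without a library. For overexpression, 3 became 0 without the filter, without the trend, without day 4, without day 6 or without either clone, and 5 with the PGCLC days alone or with copies summed. In the stage steps of that table, day 2 to day 4 gave 4 without the trend and 5 to 14 without a line, instead of 11, and day 4 to day 6 gave 1 with median-ratio scaling and 0 to 6 without a line, instead of 0. In testis 12 became 5 with quantile normalization, 4 without the trend, 6 by DESeq2 and 5 to 12 without a library, and the median of 0.198 became 0.303 without the genes whose copies held above 10% and 0.258 to 0.349 without a library. The causes were not tested. Leaving out a library with 1 left in its group assumes that it varies like the other groups.

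Blocking on replicate number, the counts were 21, 27, 1, 15 and 1 in the dTAG13 table, as without it, and 15 in place of 12 in testis. The deviations of same-numbered libraries correlated between -0.069 and 0.118 over 5 comparisons of 2 pairs. Without the line as a block the steps of the overexpression table gave 26, 10 and 0. With 2 libraries a group, small differences could not be resolved, and a gene that was not called is not shown to be unchanged.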

Other observations

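In the authors' deposited table, 3 of the 39 genes (Rrn3, Dkc1 and Nolc1) had an FDR under 0.05 from EpiLC to day 2, all lower, where 12.4% of genes with a mean of at least 1 had one, a higher share than that of the 39. For dTAG13, in the authors' deposited table, 3 of the 39 genes had an FDR under 0.05 on day 2, all lower (Gar1, Nolc1 and Rrp1b), where 5.49% of all genes had one, and 16.1% of the genes with a mean of at least 1, as all 39 have. On day 4 the authors' deposited table gave 10, all lower (Nop56, Nop2, Gar1, Nop10, Ncl, Nolc1, Rrp9, Bop1, Pes1 and Rrp1b), where 7.98% of all genes and 24.3% of those with a mean of at least 1 had one. Against genes of such a mean, the share of the 39 was lower on day 2 and close on day 4. The shares of genes given here for the authors' table count both directions. Shares by direction were not computed, so whether falls or rises alone were more frequent among the 39 cannot be read from them. The authors' deposited comparisons of overexpression with the vector gave 0 in EpiLCs, 2 on day 2 (Nhp2 and Wdr43), 4 on day 4 (Nop2, Nhp2, Ncl and Nolc1) and 1 on day 6 (Rrs1), all higher, where the shares of genes with a mean of at least 1 were 2.25%, 4.87%, 5.5% and 2.01%. For testis the authors' deposited table gave 10 higher and 2 lower, the same 12 genes as limma called here, where 31.1% of genes with a mean of at least 1 had an FDR under 0.05, close to the share of the 39.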
